A study of Homo sapiens with 2 samples.

Results

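Cytosolic ribosomal protein genes are among the most active genes of a dividing cell, and their promoters served here as a set of constitutive promoters in which a gain of DNA methylation away from the targeted locus could be looked for. The members were all autosomal protein-coding genes of the human annotation whose symbol is RPL or RPS followed by a number with an optional A, L or X, together with RPLP0, RPLP1, RPLP2 and RPSA. The rule gave 77 of 19229 autosomal protein-coding genes, namely 40 proteins of the large subunit, 31 of the small subunit, 3 of the stalk and 3 tissue-restricted paralogs (RPL3L, RPL10L and RPL39L). A further 4 genes with such names lie on chromosome X and were left out by the rule.

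The ribosome is built of a small subunit, which decodes the mRNA, and a large subunit, which joins amino acids, and each ribosomal protein is normally made by a single active gene. Because every cell needs all of them, these genes are transcribed in all tissues from short promoters, most of them inside CpG islands, and their mRNAs begin with a cytosine and a run of pyrimidines (the 5′ terminal oligopyrimidine, or TOP, motif) that couples their translation to growth signals. CpG islands of active genes are usually free of methylation, whereas the bodies of active genes are usually methylated. RPL3L, made in heart and skeletal muscle, and RPL10L and RPL39L, made chiefly in testis, are the exceptions that are not used by most cells.

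Whole genome bisulfite sequencing was performed on 2 cultures of HEK293T, a human embryonic kidney line, with 1 library for each. The control, Neg, was an untreated culture according to the study. The other, dCas9+3A+HOXA5, carried lentiviral dCas9 fused to SunTag epitopes, a single-chain antibody that brings the DNA methyltransferase DNMT3A1 to those epitopes, and a guide RNA to HOXA5. It is called the targeted library below. The treatment label names 30 days and a purification of fluorescent cells for both libraries, so that the titles alone separate them. Transduced cells were a sorted mixed population rather than a clone, the transgenes were expressed continuously, and a library with DNMT3A1 but without the guide was not analysed here. Without replicates, a test on reads compares these 2 libraries and not the conditions, and the construct, the sort and the culture cannot be told apart.

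Of the autosomal CpGs, 22577702 were listed in Neg with a mean of 3.81 reads, and 15475692 in dCas9+3A+HOXA5 with a mean of 2.897. The 14693954 CpGs listed in both all fell on a CG of GRCh37. At the targeted HOXA5 promoter the mean level was 1.80% in Neg and 41.2% in the targeted library, which is the direction the labels imply. On the mitochondrial chromosome, 6.98% of reads were listed as methylated in Neg and 4.25% in dCas9+3A+HOXA5. Differences below are dCas9+3A+HOXA5 minus Neg in percentage points. A level is the mean over CpGs that had at least 1 read in both libraries, and a share is methylated reads over all reads. Numbers of reads are summed over CpGs here and below, so a read that covers several CpGs is counted at each. They are therefore not numbers of separate molecules.

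The start regions of 3 members are shown as they read in GRCh37, because they show what an unmethylated and a methylated start of this family look like. Capitals mark the CpGs covered in both libraries, and the stretches end 15 bases after the start of the gene record, or at the start for RPL10L. They lie at chr15:69745003-69745168 (plus strand) for RPLP1, at chr20:60962009-60962174 (plus strand) for RPS21 and at chr14:47120984-47121044 (minus strand) for RPL10L.
RPLP1 start: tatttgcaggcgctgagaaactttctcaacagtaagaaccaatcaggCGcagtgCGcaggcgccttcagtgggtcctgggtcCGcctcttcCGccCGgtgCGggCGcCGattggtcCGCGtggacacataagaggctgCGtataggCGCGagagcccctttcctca
RPS21 start: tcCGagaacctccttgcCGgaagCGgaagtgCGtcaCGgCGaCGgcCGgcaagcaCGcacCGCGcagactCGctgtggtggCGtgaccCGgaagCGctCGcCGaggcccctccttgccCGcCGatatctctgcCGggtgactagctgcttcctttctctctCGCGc
RPL10L start: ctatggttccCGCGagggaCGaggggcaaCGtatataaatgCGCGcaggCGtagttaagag
In the stretch of RPLP1, a stalk protein that recruits elongation factors, 2 of 106 reads over 13 CpGs were methylated in Neg and 6 of 109 in the targeted library. In that of RPS21, 2 of 111 reads over 22 CpGs were methylated in Neg and 2 of 59 in the targeted library. In that of RPL10L, 34 of 35 reads over 7 CpGs were methylated in Neg and 109 of 118 in the targeted library. The stretches of the stalk and small-subunit genes were almost free of methylation in both libraries, and that of the testis paralog was nearly fully methylated in both.

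A TOP-like start, searched on the gene's strand as a C followed by 4 pyrimidines and beginning within 5 bases of the start of the canonical transcript, was found in 63 of 77 members (81.8%), against 4171 of all 19229 genes (21.7%). The letters TATAAA occurred 40 to 15 bases before that start in 4 members (5.19%) and in 754 of all genes (3.92%). By sequence alone, 53 of the 77 were CpG-rich (GC of 55% or more, and CpGs at 0.65 or more of the number expected from base composition, within 500 bp of the start). A match of letters is a description of the promoter and not a measured site.

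No promoter of a ribosomal protein gene was called different between the libraries. Within 1 kb either side of the gene start, 74 of 77 members could be tested, and 0 were called higher and 0 lower by the rule of a difference over 20 points with an adjusted p under 0.01 (Fisher's exact test on summed reads, Benjamini-Hochberg adjustment over 17837 promoters). Of all promoters tested, 1.46% were called higher and 0.437% lower, and of the CpG-rich ones 0.535% and 0.278%, so that a count of 0 in 74 is near the background and is no result about the members. The other 3, RPL4 and RPS18 among them, had too few CpGs covered in both libraries for the test. The median level was 4.98% in Neg and 6.41% in the targeted library, and the median difference was 0.72 points against 1.37 over all promoters and 0.89 over CpG-rich promoters. The difference was above 0 in 42 members (56.8%) and below 0 in 32. It was above 0 in 64.0% of all promoters and in 62.7% of the CpG-rich ones. An unadjusted p under 0.05 in Fisher's exact test was reached by 16 of 74 members, where 26.8% of all promoters reached it. The difference was positive in 10 of the 16 and negative in 6, where 19.2% of all promoters passed with a positive and 7.56% with a negative difference.

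**Figure D1:**
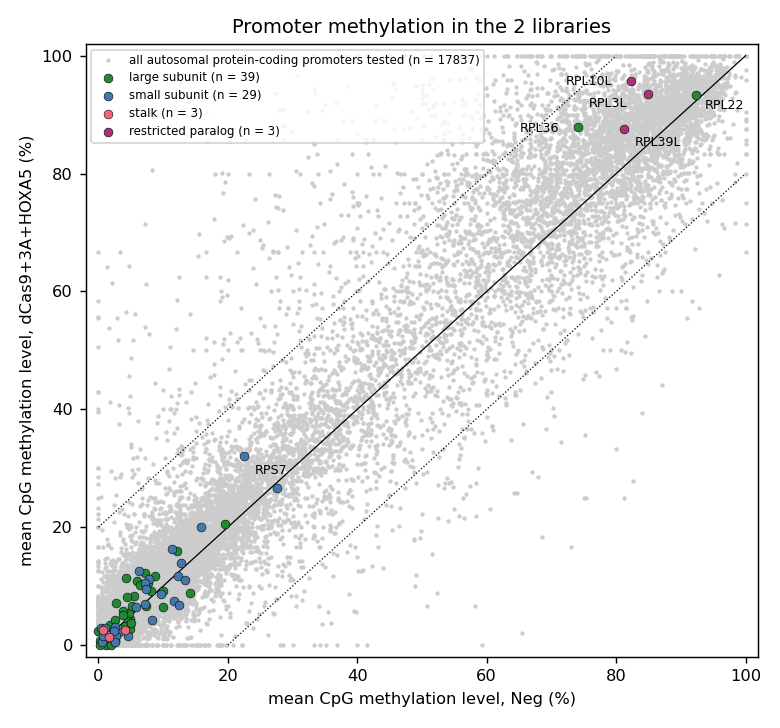
Mean CpG methylation level of each promoter (1 kb either side of the gene start) in Neg (x axis, %) and dCas9+3A+HOXA5 (y axis, %), with the 74 members coloured by class over all 17837 promoters in grey, the line of equality and dotted lines at differences of 20 points. No member lies beyond the dotted lines, and 5 members, labelled at the upper right, lie above 50% in both libraries.

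Most of the 74 promoters were low throughout. In Neg, 55 had a level under 10%, 14 lay between 10% and 50%, and 5 (RPL22, RPL36, RPL3L, RPL10L and RPL39L) were above 50%, and the same bands held 51, 18 and 5 in the targeted library. The lowest levels, all at the start of the gene record, included RPL21, with 0% in Neg and 2.38% in the targeted library. RPL7, with 0.202% and 0%, RPL18, with 0.29% and 0.75%, and RPS19, mutated in Diamond-Blackfan anaemia, with 0.58% and 0.54%, were others. Within 250 bp of its canonical start, however, RPL7 read 5.62% in Neg over 8 CpGs. The stalk genes RPLP0, RPLP1 and RPLP2 read 4.03%, 0.71% and 1.67% in Neg and 2.51%, 2.54% and 1.35% in the targeted library. None of these pairs differed at an adjusted p under 0.01 by Fisher's exact test. Over all 17837 promoters tested, 7494 were under 10% in Neg and 6859 in the targeted library. Of the 9353 CpG-rich ones, 5786 and 5282 were.

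Between the bands, 9 member promoters lay at 10% to 50% in both libraries. RPS27 read 27.7% in Neg and 26.6% in the targeted library, RPL13A, which also takes part in interferon-dependent translational control, 19.5% and 20.6%, and RPS3A 15.8% and 20%. RPS14 read 12.7% and 14.0%, RPS24 13.3% and 11.01%, and RPS20 12.2% and 11.7%, and RPS7, RPL30 and RPS15 made up the 9. A further 9 were under 10% in Neg and at or above it in the targeted library, among them RPL19 (4.30% and 11.3%), RPS27L, a paralog of RPS27 induced by p53 (6.19% and 12.5%), RPL3, RPL23, RPL35 (6.43% and 10.3%), RPS26 (7.82% and 11.1%), RPL6 (8.70% and 11.7%) and RPL29 (7.61% and 10.5%). The opposite was seen in 5, namely RPS13 (12.4% and 6.85%), RPL11, a regulator of MDM2 (14.1% and 8.82%), RPS10 (11.7% and 7.5%), RPL31 (10.0% and 6.40%) and RPL34 (10.0% and 9.09%). RPS16, under 10% in both, read 8.22% and 4.22%, the fourth largest loss after RPS13, RPL11 and RPS10. Of these genes, only RPS7, RPL3, RPL23 and RPL30 reached an adjusted p under 0.01 by Fisher's exact test.

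By the adjusted p alone, without the 20 points, 5 of 74 members were higher (RPS7, RPL3, RPL23, RPL30 and RPL10L), where 6.79% of all promoters were, and 1 of 74 was lower (RPS9), where 2.57% were. RPS7, a small-subunit protein that also binds MDM2, had a share of 27.2% of reads in Neg (21.7 to 33.6, 95% Wilson interval) and 48.7% in the targeted library (40.9 to 56.5), and its level over 51 CpGs differed by 9.57 points (22.5% ± 37.4 and 32.0% ± 45.6, SD over CpGs; adjusted p = 0.000603, Fisher's exact test). RPL3, which lines the catalytic centre of the large subunit, had shares of 6.38% (4.65 to 8.71) and 14.0% (11.3 to 17.4) and a difference in level of 4.97 points (adjusted p = 0.000722, Fisher's exact test). RPL30 had shares of 5.85% (3.38 to 9.95) and 25% (17.5 to 34.3) and a difference in level of 3.79 points (adjusted p = 0.000185, Fisher's exact test). RPL23 had shares of 4.11% (2.18 to 7.62) and 14.1% (9.41 to 20.6) and a difference in level of 4.85 points (adjusted p = 0.0088, Fisher's exact test). RPS9 had shares of 16.7% (12.8 to 21.6) and 7.06% (4.57 to 10.8), but its level differed by only -0.955 points (adjusted p = 0.00648, Fisher's exact test). The share follows the reads, whereas the level gives each CpG the same weight, and in 14 of the 74 members the difference in share and that in level had opposite signs. Under a Cochran-Mantel-Haenszel test stratified by CpG, RPS7 kept an adjusted p under 0.01 (0.000205), while the adjusted p was 0.0142 for RPL3, 0.195 for RPL23, 0.116 for RPL30, 0.0303 for RPL10L and 0.782 for RPS9. At canonical starts the difference in level was -0.81 points for RPL3 and -0.60 for RPL30 (adjusted p = 0.569 and 1, Fisher's exact test). With at least 3 reads per CpG, RPL3 kept an adjusted p under 0.01, and RPS7 (17 CpGs, a difference of 19.9 points, adjusted p = 0.0445), RPL23 (1.17 points, 0.978), RPL30 (1.28 points, 0.617), RPL10L (7.27 points, 0.305) and RPS9 (-3.66 points, 0.737) did not by Fisher's exact test. None of the 6 thus passed under both settings. Intervals cover counting error only, and several CpGs of the same read pair are not independent.

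In RPS7, RPL3, RPL23, RPL30 and RPS9 most methylated reads lay upstream of the start of the gene record in both libraries. Distances here are from that start. For RPS7 the level 500 to 1000 bp upstream was 74.4% in Neg and 100% in the targeted library over 8 CpGs, that of the 500 bp before the start was 30.6% and 46.3% over 18 CpGs, and that of the 1 kb after the start was 0% in both, with 0 of 67 and 0 of 32 reads in its first 500 bp. For RPL3 the far upstream level was 32.5% and 65.4% over 11 CpGs, and that of the first 500 bp after the start was 1.67% and 0%. For RPL23 it was 31.7% and 68.3% over 10 CpGs (17 and 30 reads), with 0% in both after the start. For RPL30 the 500 bp before the start held 9 of 23 methylated reads in Neg and 24 of 30 in the targeted library, and the 500 bp after it 0 of 86 and 0 of 21. RPS15, which did not pass the test, had 59.6% and 92.9% far upstream (14 CpGs) and 3.86% and 2.98% in the first 500 bp after the start. In the other direction, RPS9 had 43 of 68 methylated reads far upstream in Neg and 15 of 33 in the targeted library, RPS13 had 62.3% and 31.5% far upstream (13 CpGs), and RPL11 had 16.3% and 0% in the 500 bp before the start.

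**Figure D2:**
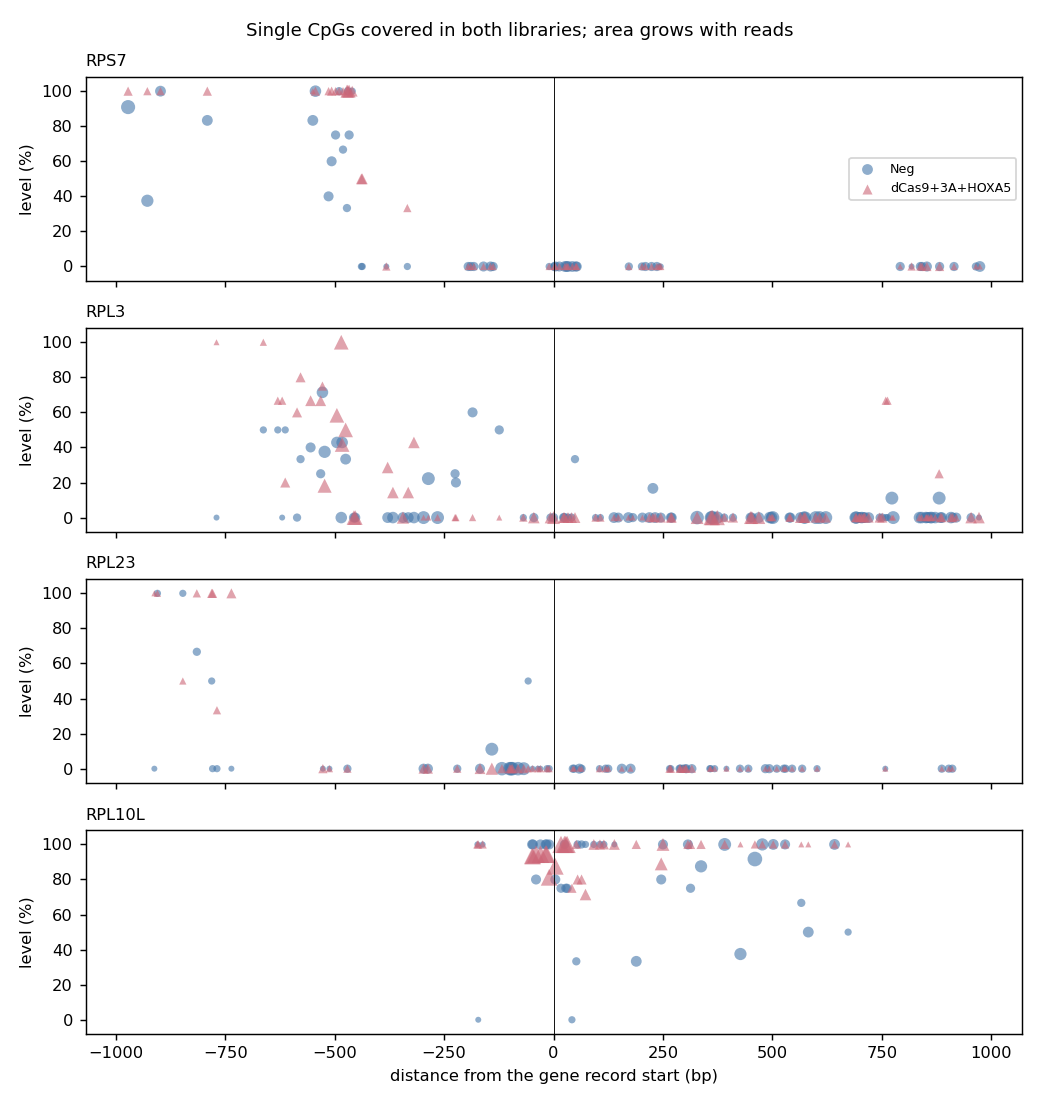
Methylation level (y axis, %) of each CpG covered in both libraries against its distance from the start of the gene record (x axis, bp; negative is upstream) at RPS7, RPL3, RPL23 and RPL10L, with circles for Neg, triangles for dCas9+3A+HOXA5 and an area that grows with the reads. In RPS7, RPL3 and RPL23 most points that differ sit upstream and most CpGs after the start lie at 0% in both, whereas RPL10L is high on both sides of its start.

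Single CpGs that lay close together could differ in different ways. In RPL3 the CpG at -485 bp had 0 of 7 and 12 of 12 methylated reads in Neg and the targeted library, while the CpG at -483 bp had 3 of 7 and 5 of 12, and those at -456 and -453 bp had 0 of 5 and 0 of 12.

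Over all member promoters, CpGs in sequence words that recur across the autosomes and X (both strands) had the highest methylated share. With the 3 restricted paralogs left out, 3138 CpGs whose surrounding 16 bases occur once had methylated shares of 5.30% in Neg and 5.42% in the targeted library. At 1548 CpGs with 2 to 99 copies the shares were 8.15% and 8.47%. At 363 CpGs with 100 or more copies, spread over 48 members, they were 37.2% and 41.7%, with 4.46 and 3.09 reads per CpG against 4.03 and 3.07 at single-copy words. This split by copy number was chosen after the values at RPS7, RPL3 and RPL23 had been seen, and the part of read placement in it was not tested.

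Closer to the start nearly every CpG was unmethylated in both libraries. Within 250 bp of the canonical start, 72 members other than the restricted paralogs had at least 5 CpGs, and 67 of them were under 5% in both libraries and 0 reached 10% in either. No methylated read was seen in 22 of these in Neg, in 31 in the targeted library and in 9 in both. Summed over members, Neg held 113 methylated among 8669 reads (1.30%, 1.09 to 1.56) and the targeted library 96 among 6839 (1.40%, 1.15 to 1.71, Wilson intervals), a difference of 0.10 points (Newcombe interval -0.26 to 0.48). The highest core levels were RPL38 in the targeted library, at 7.14% from 1 of 29 reads against 0 of 49 in Neg, and RPL7 in Neg, at 5.62% from 2 of 29 reads against 0 of 19 in the targeted library. Over all protein-coding genes the same window held 16.2% in Neg and 16.02% in the targeted library. A low core was not particular to the members. In the 100 bp before the canonical start, mitochondrial ribosomal protein genes had shares of 1.51% in Neg and 2.49% in the targeted library. The members without the restricted paralogs had 1.55% and 2.14% there, and proteasome genes 7.89% and 10.2%.

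The profile around the start was lopsided. More than 300 and up to 1000 bp upstream of the canonical start the 74 members other than the restricted paralogs had a share of 16.8% in Neg and 17.9% in the targeted library (difference 1.05 points, Newcombe interval -0.51 to 2.63), whereas at the same distance downstream it was 1.89% and 1.83% (difference -0.05 points, -0.61 to 0.54). CpG-rich promoters as a whole had 25.6% and 27.6% upstream and 20.02% and 20.7% downstream. Downstream, these members thus read nearly as low as at the start itself in both libraries. Mitochondrial ribosomal protein genes had shares of 9.03% and 11.1% at 400 to 500 bp upstream, and 1.98% and 3.06% downstream. Proteasome genes had 21.8% and 14.2%, and 7.52% and 5.47%, at these distances. At 900 to 1000 bp downstream, however, the mitochondrial list had 24.3% and 32.6%, and the proteasome list 46.5% and 52.5%. The members had 2.54% and 3.17% there. For the restricted paralogs, levels instead of shares were taken over the first 500 bp after the start of the gene record. RPL3L read 75.8% and 92.7% there, and RPL10L 81.0% and 95.1%. RPL39L had only 1 CpG there, with 0 of 4 methylated reads in Neg and 1 of 2 in the targeted library. The interval of the upstream difference includes 0 and also the upstream difference of 2.01 points measured over CpG-rich promoters.

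**Figure D3:**
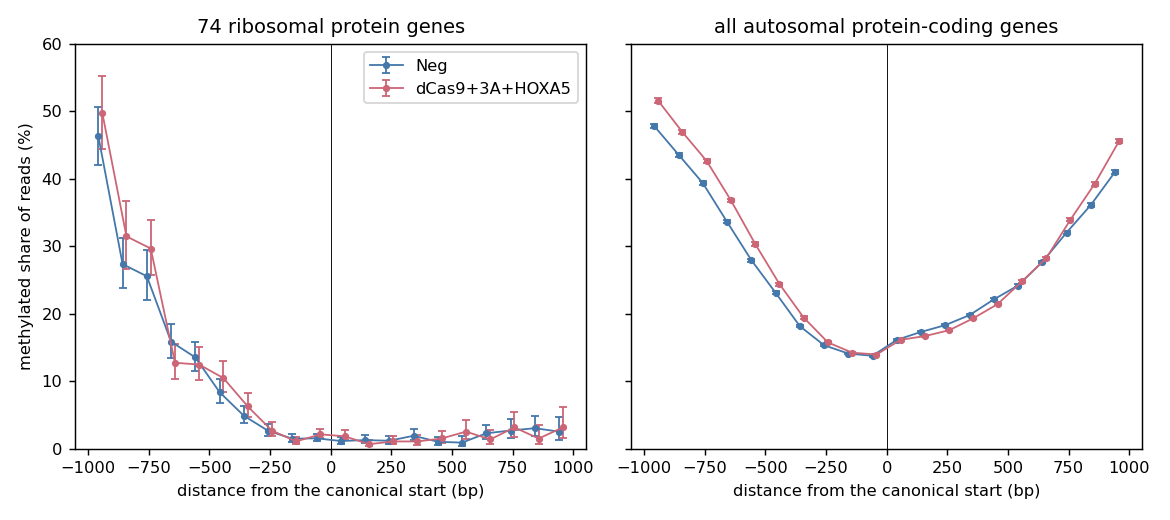
Methylated share of reads (y axis, %) in bins of 100 bp by distance from the canonical start (x axis, bp; negative is upstream) for 74 members without the restricted paralogs (left) and for all autosomal protein-coding genes (right), with 95% Wilson intervals, in Neg (blue) and dCas9+3A+HOXA5 (red). The member curves fall from 46.3% and 49.8% in the farthest upstream bin to between 1.16% and 2.14% in the 100 bp on either side of the start and stay low downstream, and the intervals of the 2 libraries overlap in every bin of the left panel.

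Over the full windows, 10.8% of 20991 reads were methylated in Neg (interval 10.4 to 11.2) and 12.2% of 16042 in the targeted library (11.7 to 12.7), a difference of 1.45 points (0.80 to 2.11). Without RPL3L, RPL10L and RPL39L the shares were 8.69% and 8.99% and the difference was 0.30 points (-0.29 to 0.89). These 3 genes hold only 115 of 5164 CpGs. They held 567 of the 20991 reads in Neg and 611 of the 16042 in the targeted library. As the mean level over CpGs, the difference was 1.01 points with them and 0.80 without. Large-subunit promoters had 9.99% and 11.3% (difference 1.29, 0.37 to 2.23) at record starts but 5.06% and 5.45% at canonical starts (difference 0.39, -0.27 to 1.06). At record starts small-subunit promoters had 8.19% and 7.64% (difference -0.55, -1.39 to 0.30) and stalk promoters 2.10% and 1.95% (difference -0.15, -1.28 to 1.09). Of the 5164 CpGs, 80.8% had no methylated read in either library. Among the 536 with 5 reads or more in both, 5 were at least 50 points higher in the targeted library and 5 at least 50 points lower (0.933% each), against 3.56% and 1.97% of 80716 such CpGs over all promoters. Of these 10, RPS6, the substrate of the S6 kinases, had the one nearest to a start, at -18 bp, with 3 of 5 methylated reads in Neg and 0 of 9 in the targeted library.

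The 3 restricted paralogs were methylated at the start of the gene record in both libraries. Their promoters held 485 methylated of 567 reads in Neg (85.5%, 82.4 to 88.2) and 573 of 611 in the targeted library (93.8%, 91.6 to 95.4). RPL10L, an intronless testis copy of RPL10, had a level of 82.2% ± 27.8 in Neg and 95.7% ± 7.76 in the targeted library (SD over 40 CpGs), which is 13.5 points apart and passed the adjusted p but not the 20 points (adjusted p = 0.00347, Fisher's exact test). The depth at RPL10L went against that of the libraries, with 3.55 reads per CpG of the reference in Neg and 6.59 in the targeted library, while member promoters together had 3.61 and 2.12, and the part of this in the difference was not tested. RPL3L, the muscle paralog of RPL3, read 84.9% and 93.5% (difference 8.57 points, adjusted p = 0.0626, Fisher's exact test). RPL39L read 81.2% and 87.5% over 16 CpGs at the start of its gene record, but 15.6% and 21.5% at its canonical start, where the nearest 250 bp on either side held 1 of 76 methylated reads in Neg and 1 of 58 in the targeted library.

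The choice of start decided whether some members looked methylated at all. In 8 members the start of the gene record and that of the canonical transcript lie more than 1 kb apart. RPL22 read 92.3% in Neg and 93.4% in the targeted library at the record start and 5.13% and 4.64% at the canonical start 9794 bp away, and RPL36 read 74.05% and 87.9% at the former and 2.28% and 2.66% at the latter, 15348 bp away. RPL4 had only 4 CpGs at the record start, too few for the test (62.5% and 75%), and 2.34% and 1.90% at the canonical start 19677 bp away. RPL6 went the other way, with 8.70% and 11.7% at the record start and 21.7% and 25.8% at the canonical one. Within 250 bp of its canonical start, however, RPL6 had 1 of 96 methylated reads in Neg and 1 of 64 in the targeted library. At canonical starts 75 members were tested and 0 were called, where 1.35% of all canonical promoters were called higher and 0.446% lower. The median difference was 0.31 points, and the median level was 4.07% in Neg and 4% in the targeted library.

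**Figure D4:**
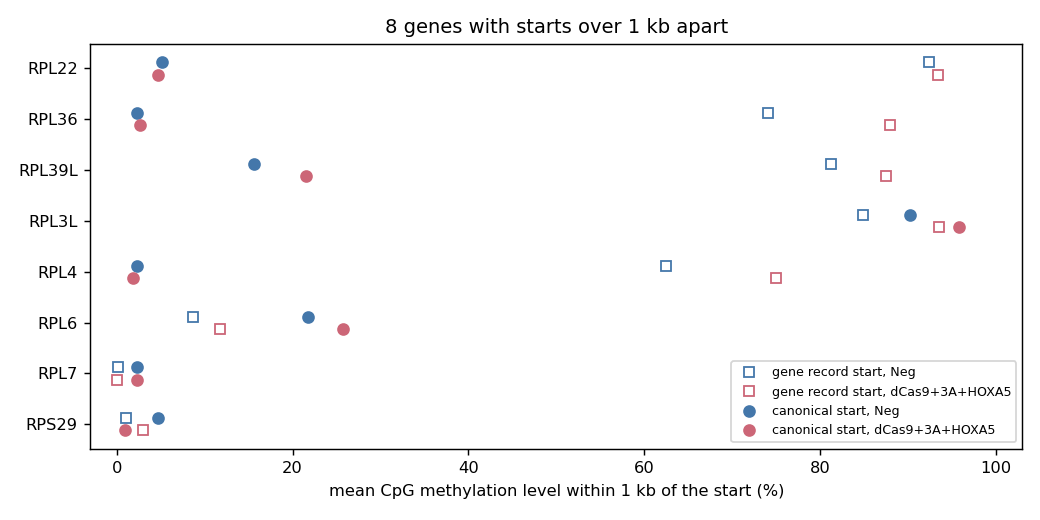
Mean CpG methylation level within 1 kb of the start (x axis, %) for the 8 members (y axis) whose gene record start (open squares) and canonical start (filled circles) lie more than 1 kb apart, in Neg (blue) and dCas9+3A+HOXA5 (red). RPL22, RPL36, RPL4 and RPL39L are above 60% at the first and below 22% at the second, and the 2 libraries differ by less than 6 points at each canonical start.

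RPS18, a small-subunit protein near the decoding site, could not be read in the targeted library. Around its start Neg listed 43 of 76 CpGs with 51 reads, and the targeted library listed 0. RPS18 lies in the major histocompatibility region of chromosome 6, of which 7 alternative haplotype sequences were listed in each library. CpGs listed on the haplotype sequences of all chromosomes, not of chromosome 6 alone, numbered 161176 in Neg (268623 reads). In the targeted library they numbered 4735 (8637 reads). How reads with several possible places were treated in each library was not given in the sources used here, and its part in this gap was not tested.

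Within 1 kb of the start of the gene record, no member promoter had a site close to the guide. The HOXA5 guide, which matches chr7:27182884-27182903 (plus strand) exactly, was compared with every site of 20 bases followed by NGG on either strand, and chromosome 7 holds 0 members. The fewest mismatches in any member promoter was 6, found in 5 members (6.49%), against 8.07% of all promoters at 6 or fewer. With 5 or fewer there were 263 of all promoters (1.37%) but 0 member promoters. A count of 0 in 77 is near that share and is no result about the members. Canonical starts outside these windows were not searched. The guide and 2 of the closest sites are shown to let the distance be seen, with mismatches in capitals, at chr20:60962224-60962243 in RPS21 and chr12:112856795-112856814 in RPL6, both on the plus strand.
HOXA5 guide: ggctgtcgctgccgggcgag
RPS21 site: ggctgGGgctgGGgCgGgag
RPL6 site: ggctgGcTctgccCCgcgTC
RPS21 read 0.44% in Neg and 2.81% in the targeted library (Fisher's exact test, adjusted p = 0.274), and RPL6 read 8.70% and 11.7% (adjusted p = 0.0985, Fisher's exact test).

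Gene bodies, taken as the gene span beyond 1 kb after the start of the gene record, were mostly methylated in both libraries, and none was called different. In the 8 members whose record and canonical starts lie more than 1 kb apart, RPL36 and RPL39L among them, the body so taken includes the canonical start. Of 77 bodies, 72 were tested and 5 had too few CpGs, RPL10L and RPS18 among them with 0, and 0 were called higher and 0 lower, where 2.28% and 0.155% of 18045 bodies were. The median level was 58.5% in Neg and 60.5% in the targeted library, and the median difference was 0.89 points against 4.34 over all bodies, whose median level was 76.8% in Neg. With at least 5 reads per CpG, 35 members were left and their median difference was -1.45 points, against 4.05 over all bodies. By the adjusted p alone 6 of 72 were higher and 2 of 72 lower, where 41.6% and 2.63% of all bodies were. An unadjusted p under 0.05 in Fisher's exact test was reached by 18 of 72, 11 with a positive and 7 with a negative difference, where 58.8% of all bodies reached it, 54.3% with a positive and 4.52% with a negative difference. Member bodies are short, with a median of 50 CpGs against 232, so fewer reads stand behind each test. Introns gave a median difference of 2.42 points (64 members) against 4.83 over all genes, and exons -0.35 (63 members) against 2.61. No test of the difference between the members and the other genes was made.

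The bodies that passed the adjusted p by Fisher's exact test were few. RPL39L was higher by 13.3 points (54.6% and 67.9% over 226 CpGs, adjusted p = 0.000204, Fisher's exact test), RPS15 by 8.41 (4.93% and 13.3%), RPS24 by 7.27 (68.1% and 75.4%), RPL6 by 6.35 (59.1% and 65.4%), RPL13A by 4.97 (45.9% and 50.9%) and RPL36 by 0.87 (33.8% and 34.7% over 474 CpGs). Of the 2 that were lower, RPL3 differed by -3.09 points (35.5% and 32.4%). Under the Cochran-Mantel-Haenszel test RPL13A, RPL36 and RPL3 no longer passed the same threshold, and RPL38, named next, did. With at least 3 reads per CpG only RPS15 and RPL13A of these 7 still passed, while RPL39L, RPL36, RPL3, RPL6 and RPS24 did not (adjusted p = 0.0122, 0.0115, 0.0209, 0.139 and 0.278, Fisher's exact test). In introns alone RPL39L was the 1 of the 7 that passed (adjusted p = 0.00141, Fisher's exact test). Other large differences did not pass Fisher's exact test, most of them in bodies with few CpGs, among them RPLP1 (24.8% and 58.3% over 6 CpGs), RPS12 (31.1% and 47.4% over 16), RPLP0 (46.4% and 60.3% over 50), RPL38 (51.1% and 62.2% over 70), RPL17 (44.8% and 12.5% over 8), RPL10A (15.6% and 1.67% over 20), RPL35A (60.6% and 48.2% over 35), RPS3A (82.1% and 72.5% over 12) and RPS28 (63.8% and 54.98% over 11). In exons alone 1 of 63 members, RPS10, was called lower and 0 higher, where 0.27% and 1.63% of all genes were (RPS10 64.3% and 39.0% over 14 CpGs, adjusted p = 0.00471, Fisher's exact test). Its introns read 71.2% and 75.3%. Processed pseudogenes copy exons but not introns, and exons and introns of the member bodies had 3.88 and 3.51 reads per reference CpG in Neg and 2.20 and 1.87 in the targeted library, against 3.89 and 3.23, and 2.20 and 1.71, over all genes. The part of pseudogene reads in the exon values was not tested.

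The other lists had counts of calls near the background of 1.46% of promoters and 2.28% of bodies called higher. They were taken by name (MRPL or MRPS, PSMA to PSMD, or EIF, plus a number) or as chosen elongation and ribosome biogenesis factors. Genes of restricted expression were not left out of them. Above 50% in Neg were 3 mitochondrial ribosomal, 5 proteasome, 4 translation factor and 4 ribosome biogenesis promoters. Of 77 tested promoters of mitochondrial ribosomal proteins 0 were called, with a median difference of 0.14 points, and of 36 proteasome promoters 0, with 0.09. Of 58 promoters of translation factors 0 were called, with 1.58, and of 38 of ribosome biogenesis factors 0, with 0.81. At canonical starts the medians were 0.11, 0.08, 0.68 and -0.58 points, so that of the biogenesis factors turned its sign, beside 0.31 for the cytosolic ribosomal proteins and 1.23 for all genes. For bodies the medians were 2.01, 3.36, 2.29 and 2.35 points, each above the 0.89 of the cytosolic ribosomal proteins and below the 4.34 of all genes, with 1 of 75 mitochondrial and 1 of 36 proteasome bodies called higher and 0 of 60 and 0 of 38 in the others.

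**Figure D5:**
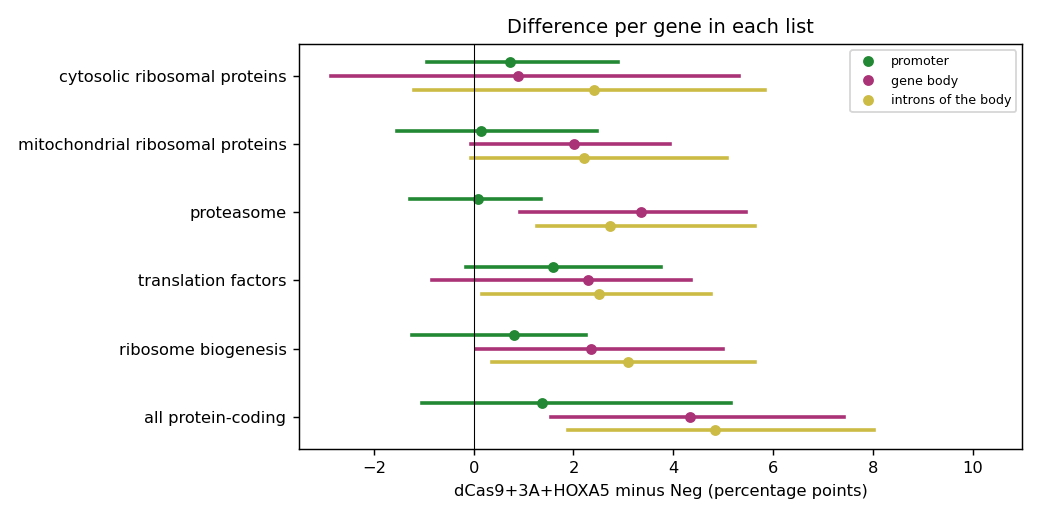
Difference per gene, dCas9+3A+HOXA5 minus Neg (x axis, percentage points), as the median (point) and quartiles (line) over the tested genes of each list (y axis), for promoters, gene bodies and the introns of the bodies. Promoter medians at the starts of the gene records lie between 0.09 and 1.58 points, and the body median of 0.89 for cytosolic ribosomal proteins lies below that of 4.34 for all genes.

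Of the 6 autosomal ribosomal protein genes outside the naming rule that are described here, 1 was called at the start of its gene record, where 1.46% of all promoters were called higher. They are too few to be set apart from that background. RACK1, a scaffold protein of the small subunit, was called higher at the start of its gene record (3.49% and 29.0% over 37 CpGs, adjusted p = 2.27e-15, Fisher's exact test), but at its canonical start 4190 bp away it read 0.83% and 4.73% and was not called. FAU, which encodes a ribosomal protein fused to a ubiquitin-like domain, read 5.12% and 2.93%. RPL36AL, RPL7L1, RPL26L1 and RPL22L1 read 2.79% and 1.97%, 31.4% and 37.02%, 20.4% and 15.2%, and 3.26% and 18.8%, and none was called, although RPL7L1 passed the threshold on p (adjusted p = 8.54e-06, Fisher's exact test). At its canonical start RPL26L1 read 8.12% and 0.80%, which passed the threshold on p but not that on size (-7.31 points, adjusted p = 0.00357, Fisher's exact test). On chromosome X, outside the test, RPS4X read 15.05% and 12.5% and RPL39 29.5% and 21.4%, and RPL10, with 0 CpGs in both libraries at its record start, read 3.50% and 1.57% at its canonical start.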

How the data were processed

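Whole genome bisulfite sequencing libraries of HEK293T were deposited for 2 groups with 1 sample each. Per the submitters' processing notes, the authors aligned reads with BSMAP 2.90 to hg19. The deposited files give, for each CpG, the methylated read count and the total read count, an estimated count that discounts C-to-T variants seen on the opposite strand, and the methylated fraction, all made by the authors. Autosomal read counts summed over CpGs were 86000851 for Neg and 44834966 for dCas9+3A+HOXA5, a read being counted at each CpG it covers. The median was 3 and 2 reads per listed CpG, and this depth limits single CpGs.

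CpGs with at least 1 read in both libraries were used. Promoters were 1 kb either side of the gene start, and bodies the remaining gene span (GENCODE 44 lifted to GRCh37). A region with at least 5 CpGs was tested with Fisher's exact test (two-sided) on summed reads, with Benjamini-Hochberg adjustment over all autosomal protein-coding regions (scipy 1.17.1, numpy 2.4.6, pandas 2.3.3), and was called when the adjusted p was under 0.01 and the difference over 20 points. Intervals were 95% Wilson for shares and Newcombe for differences. The test was checked on simulated reads, drawn independently at each CpG with no variation between cultures. That check cannot give the rate of false calls for linked CpGs or for differences between cultures. Its added gain was above the 20 points of the rule, so smaller differences were not checked. Sequences were read from GRCh37, the guide from the study's oligonucleotide list.

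The members and lists were chosen with earlier results of these data known. Genes were named when called, among the 5 largest gains or losses of promoter or body, at 10% or more in a promoter, a paralog (RPL3L, RPL10L, RPL39L, RPS27L) or a ribosomal protein gene outside the naming rule. Genes named for the adjusted p alone, a low or core level, a single CpG, a moved start, missing reads or a printed sequence were chosen after their values were seen. Alternatives were minimum reads, the corrected count, other windows and starts, share instead of level, minimum CpGs, a stratified test, a smaller difference and introns only. A window of 0.25 kb and leaving out the restricted paralogs were added after seeing the data. X-linked genes were not tested. A few genes and sequences are counted in the totals but not reported here.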

Additional observations from a re-analysis of the deposited data

Results flagged for a closer look

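The X-linked ribosomal protein genes were used in no test above. Their regions were flagged when the share in the targeted library (dCas9+3A+HOXA5) was above the control, with 95% Wilson intervals that did not overlap. This held in 1 of 3 promoters and 1 of 4 bodies with enough CpGs. Over all autosomal genes 10.8% of promoters and 42.8% of bodies met the same criterion, so these counts are too small to set apart from that background. The RPL36A promoter had a share of 8.76% in Neg (5.96 to 12.7) and 36.5% in the targeted library (29.4 to 44.3), and its level differed by 24.7 points (10.2% and 34.9% over 53 CpGs). The RPL39 gene body had a share of 13.7% in Neg (9.48 to 19.5) and 39.0% in the targeted library (31.5 to 47.1), and its level differed by 16.7 points (19.5% and 36.2% over 46 CpGs), whereas the RPL39 promoter read 29.5% and 21.4%. These differences were not tested across genes and have no replicate check.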

How the results depend on the processing

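No paired analysis was possible because the labels give 1 library for Neg and 1 for dCas9+3A+HOXA5, and no replicate could be left out. Counts of called member promoters stayed at 0 in both directions under 3 or 5 reads, the corrected count, windows of 0.5 and 2 kb, canonical starts, 10 CpGs or 1, the stratified Cochran-Mantel-Haenszel test and both added alternatives. They became 1 higher with the share as the level (RPS7) and 1 higher at 10 points (RPL10L). Of all promoters, 2.67% and 3.13% were called higher under these 2 settings. Called bodies became 1 higher (RPS15) and 2 lower (RPS10 and RPSA) at 5 reads, where 35 members were left to test. Of 14318 bodies at 5 reads, 2.49% were called higher and 0.321% lower. At 10 points 1 member body was called higher (RPL39L), where 10.1% of all bodies were.

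The median promoter difference was 0 at 5 reads (34 members) and 0 within 0.25 kb of the canonical start. Over all promoters it was 0.27 and 0 under these settings. At 3 reads, 0.5 kb and 2 kb the member median was 0.44, 0.11 and 1.22, against 1.09, 0.40 and 2.57 over all promoters. The median body difference was -1.45 at 5 reads and 2.42 in introns. The pooled promoter difference was -0.38 points at 2 kb, 2.77 within 0.25 kb of the canonical start (0.10 without the restricted paralogs, of which RPL10L held 95 and 280 reads there) and 0.30 in the full window without the restricted paralogs. Over all genes, promoters called higher and lower numbered 260 and 78 of 17837 tested (1.46% and 0.437%). At 5 reads they numbered 104 and 41 of 6507 (1.60% and 0.630%). They were 477 and 180 of 17837 with the share, and 558 and 190 of 17837 at 10 points. Within 0.25 kb of the canonical start they were 122 and 102 of 15655. Bodies called higher and lower numbered 412 and 28 of 18045, and 1828 and 138 of 18045 at 10 points. Those called lower were 46 of 14318 at 5 reads and 54 of 18045 with the share.

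Signs of named genes turned in 43 of 469 combinations of gene and setting, 31 of them with no adjusted p under 0.01 in either value. The other 12 follow. At 0.5 kb the promoter difference was -1.19 for RPL13A, -1.42 for RPL23 and 1.24 for RPS9. Within 0.25 kb of the canonical start it was -2.26 for RPL23, -0.76 for RPL30 and 1.11 for RPS9. At canonical starts it was -0.81 for RPL3 and -0.60 for RPL30, and at 5 reads -1.79 for RPL10L. For bodies it was -0.24 for RPS24 at 5 reads, and -0.89 for RPL13A and 0.22 for RPL3 in introns. The windows, starts, introns and read minimum behind these 12 each take other or fewer CpGs by construction. The cause of the turns was not tested. At 5 reads, depth leaves under 50% of the members.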
